A study of Callithrix jacchus with 54 samples.

Results

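A set of 4 libraries of sorted primordial germ cell-like cells (PGCLCs) of the common marmoset, taken at 96 h of induction, were compared: 2 from a route driven by SOX17 without BMP4 and 2 from a route with BMP4 and the WNT inhibitor IWR1. They were chosen by condition among the 54 libraries of the study, which hold 27 conditions in duplicate, and expression did not enter the choice. Both groups came from CMES40, a marmoset embryonic stem cell (cjESC) line, with the reporters BLIMP1-tdTomato (BT) and NANOS3-eGFP (NG). Both were sorted for tdTomato, so PRDM1, which encodes BLIMP1, is also the gene behind the gate.

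In the first group, SOX17 + LSE, cjESCs kept in the medium DK20FA were induced with enforced SOX17, LIF, SCF, EGF and a ROCK inhibitor. Their genotype is given as rtTA; tetO-BLIMP1; SOX17-GR; DD-TFAP2C, although the number in the TFAP2C name climbs from library to library in the sample labels. SOX17-GR is a human SOX17 fused to the glucocorticoid receptor and was switched on with dexamethasone, while the other transgenes were not induced. In the second group, BLSE + IWR1, cjESCs without these transgenes, labelled wild type and kept in the medium PESFA, were first treated with IM12, which activates WNT signaling, and activin A. They were then induced with BMP4, LIF, SCF, EGF, a ROCK inhibitor and IWR1. The groups thus differed in BMP4, IWR1, the transgene and its ligand, the pre-treatment, the starting medium and the subline, and the effects of these cannot be told apart. Expression was given as TPM, a share of transcripts corrected for gene length, for which the read depth is unknown, and the number of genes above 0 ranged from 11847 to 12334 in the 4 libraries.

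Primordial germ cells are the embryonic precursors of eggs and sperm. In primates SOX17, BLIMP1 and TFAP2C specify them, and BMP and WNT signals make pluripotent cells competent for this fate. The same WNT, NODAL and SOX17 signals also lead pluripotent cells to mesoderm and endoderm, and FOXA2 and HNF4A are transcription factors of the endoderm and liver.

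The genes that specify germ cells did not separate the groups by the test. SOX17 was at 386 and 366 TPM in the SOX17 + LSE libraries and at 474 and 555 TPM in the BLSE + IWR1 libraries. NANOS3, an RNA-binding factor that keeps germ cells alive, was at 137 and 183 TPM against 146 and 225 TPM. TFAP2C was at 859 and 756 TPM against 771 and 859 TPM. The groups overlapped for NANOS3 and TFAP2C, and both SOX17 + LSE libraries lay below the others for SOX17.

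On the log2(TPM + 1) scale, the difference in SOX17 (SOX17 + LSE minus BLSE + IWR1) was -0.45, with a 95% confidence interval from -1.03 to 0.14 and an adjusted p of 0.31 by limma. For NANOS3 it was -0.19 (interval from -0.79 to 0.40), for TFAP2C -0.01 (from -0.39 to 0.36) and for PRDM1, the sort gene, 0.15 (from -0.28 to 0.57). None of these 4 passed an adjusted p of 0.05, and reads of the human transgenes cannot be told apart from those of SOX17, PRDM1 and TFAP2C. The SOX17 + LSE libraries are labelled differentiated cells and the BLSE + IWR1 libraries cjPGCLC. SOX17, NANOS3, TFAP2C and PRDM1 were not called between them, although the groups did not overlap for SOX17.

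Of the 16 tested members of a list of PGC specifiers and early PGC genes, 1 was higher in SOX17 + LSE and 1 lower at an adjusted p under 0.05. Over all 11197 genes tested, 12.7% were higher and 5.07% lower by this rule. The higher member was ITGB3, an integrin subunit, at 20.6 and 15.9 TPM against 7.1 and 6.82 TPM. The lower one was KIT, the receptor of SCF, at 1.61 and 1.95 TPM against 3.9 and 2.61 TPM, and it was called in 1 of the 4 fits that each left out 1 library. The median log2 difference of the list was -0.10, beside 0.05 over all genes tested.

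POU5F1, the central pluripotency factor that germ cells keep, was lower in SOX17 + LSE. It was at 4399 and 4113 TPM against 7085 and 6996 TPM. This gap between the groups was far wider than the gap within them, and the log2 difference was -0.73 (SE 0.097, adjusted p = 8.4e-07). In NANOG the difference was -0.20 (adjusted p = 0.48). SOX2, which primate germ cells switch off, was at 2.42 and 2.11 TPM against 1.21 and 0 TPM, and at 191 and 200 TPM in the starting cjESCs in DK20FA. TDGF1, a co-receptor of NODAL, was higher, with a log2 difference of 0.75 (adjusted p = 0.0016). In all, 3 of 13 tested members of the pluripotency list were higher and 1 lower, beside 12.7% and 5.07% of all genes tested. The third was LIN28B, a regulator of RNA, with a log2 difference of 0.63 (adjusted p = 0.027), which was called in none of the 4 fits without 1 library. SOX2 lost its call without BLSE + IWR1 replicate 2 (adjusted p = 0.30).

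Most of the genes that differed strongly between the routes were higher in SOX17 + LSE. A differentially expressed gene (DEG) was one whose levels differed by more than 4-fold with an adjusted p below 0.01, and whose log2 level averaged over 1.5. By this rule 102 genes, 0.911% of those tested, were higher in SOX17 + LSE and 5 genes, 0.0447%, were lower. At an adjusted p under 0.05 alone, 1420 genes were higher and 568 lower, so that 71.4% of these were higher, or 52.7% after quantile normalization. For all 102 and all 5 DEGs, the replicates of one group lay entirely above those of the other, as they did for 54.6% of all genes tested.

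The spread behind these tests came from all 54 libraries. When the 4 libraries were fitted alone, limma called 0 genes at an adjusted p under 0.05, with the smallest at 0.073, while 2677 genes had an unadjusted p under 0.05. With 2 libraries against 2, the exact permutation test for 1 gene cannot give a p below 0.33.

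**Figure D1:**
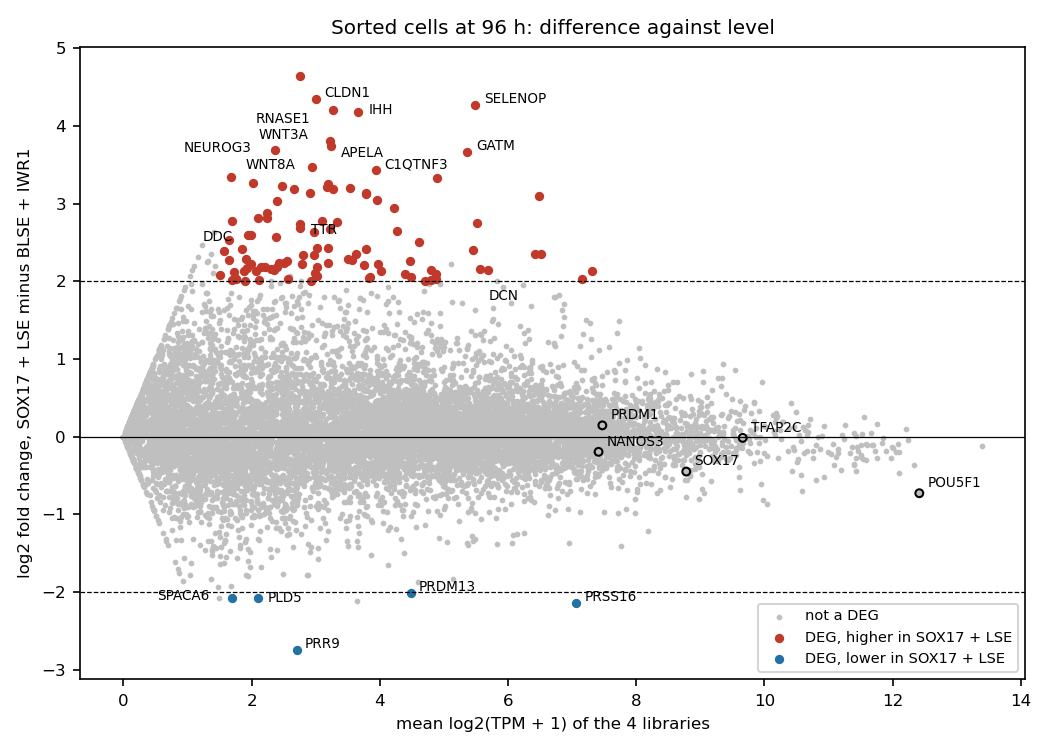
Each point is 1 of 11197 genes, with the mean log2(TPM + 1) of the 4 libraries on the x axis and the log2 fold change at 96 h on the y axis; dashed lines mark 4-fold. The 102 DEGs higher in SOX17 + LSE stand against 5 lower, DCN lies at the dashed line, the PGC genes (open circles) lie near 0, and the highest point is a gene with a locus number for a symbol.

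The largest increases among DEGs with a gene symbol included epithelial and secreted products. CLDN1, a tight junction protein, was at 36.3 and 34.3 TPM in SOX17 + LSE and at 1.2 and 0.44 TPM in BLSE + IWR1, a log2 difference of 4.35 (SE 0.39, adjusted p = 4.8e-10). SELENOP, the selenium carrier of blood plasma, was at 136 and 285 TPM against 8.33 and 10.2 TPM. RNASE1, a secreted ribonuclease, was at 32.3 and 50.2 TPM against 0.43 and 2.51 TPM. For these 3 genes both SOX17 + LSE libraries were more than 10-fold above both others.

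GATM, an enzyme of creatine synthesis, was at 134 and 159 TPM against 9.73 and 11.6 TPM, and its log2 difference of 3.66 had the smallest adjusted p among the DEGs (2.4e-13). C1QTNF3, a secreted C1q-related protein, was at 41.2 and 59.6 TPM against 2.86 and 4.72 TPM. The other genes among the 10 largest were signals and a transcription factor.

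IHH, a hedgehog ligand of endodermal epithelia, was at 34.8 and 79.9 TPM in SOX17 + LSE and at 1 and 3.38 TPM in BLSE + IWR1. APELA, a peptide ligand of the apelin receptor that acts in early endoderm, was at 20.6 and 54.1 TPM against 1.93 and 1.27 TPM. NEUROG3, the factor that starts the endocrine lineage of pancreas and gut, was at 17.2 and 18.1 TPM against 0 and 1.07 TPM. In IHH and APELA the replicates of SOX17 + LSE differed by more than 2-fold, with replicate 2 the higher, yet the groups stayed apart.

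Over all 27 conditions, the mean level in SOX17 + LSE at 96 h was the highest for CLDN1, SELENOP, IHH, APELA, NEUROG3, GATM, TTR and DDC. It ranked 2 for C1QTNF3, 4 for RNASE1, 8 for DCN, 10 for WNT3A and 13 for WNT8A. This order is a description of means of 2 libraries each.

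**Figure D2:**
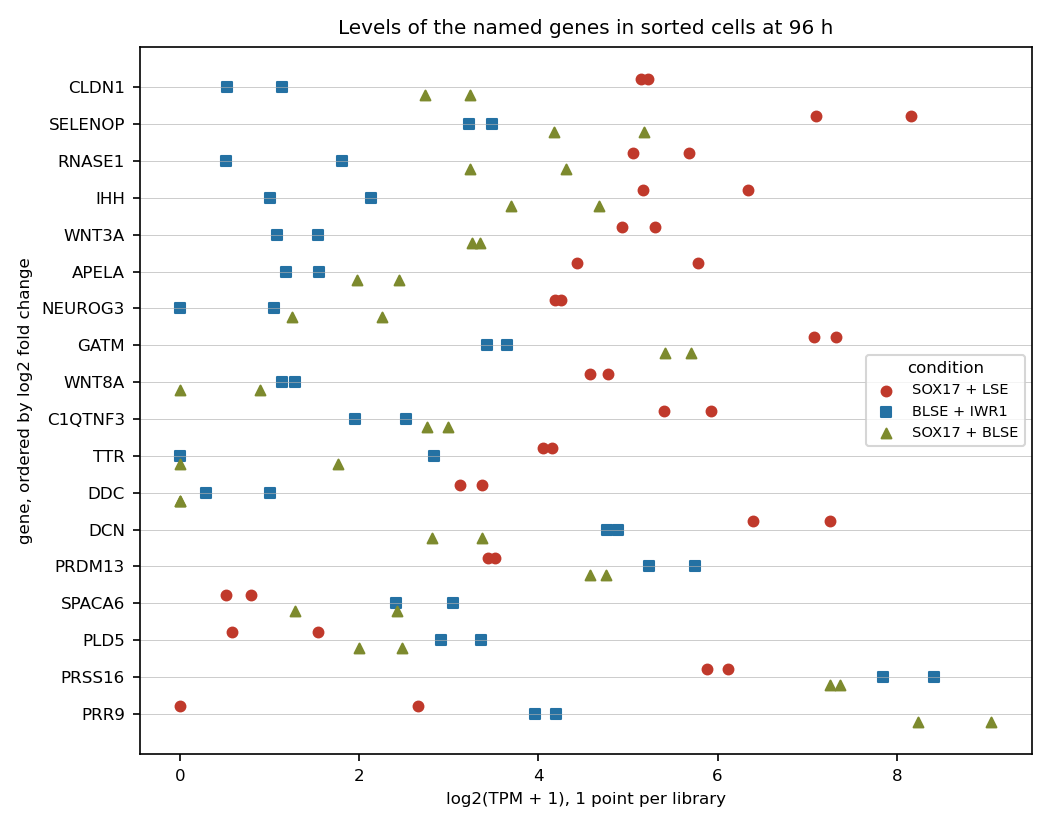
The x axis gives log2(TPM + 1) and the y axis the 18 named genes in order of fold change, with 1 point per sorted library at 96 h from SOX17 + LSE, BLSE + IWR1 and SOX17 + BLSE. In CLDN1, SELENOP, IHH, WNT3A and GATM the SOX17 + BLSE points lie between the other groups, whereas WNT8A and DDC are at 0.85 TPM or less there.

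Genes of endoderm and of the proteins that liver and visceral endoderm secrete were often higher, although 4 of the 102 DEGs belonged to this list. Of 25 tested members of this list, 16 were higher in SOX17 + LSE, 2 were lower and 7 were not called, with a median log2 difference of 0.95, beside 12.7% higher and a median of 0.05 over all genes tested. FOXA2 was at 37.4 and 59.4 TPM against 5.74 and 7.67 TPM, a log2 difference of 2.65 (SE 0.42, adjusted p = 1.9e-05). GATA6, an endoderm factor, was at 37.6 and 55.5 TPM against 11.6 and 18 TPM, and HNF4A at 13.1 and 28.6 TPM against 3.47 and 7.82 TPM. All 3 factors were higher in both SOX17 + LSE libraries than in both others, while 54.6% of all genes tested did not overlap between the groups. HNF4A was not called without SOX17 + LSE replicate 2, where its log2 difference was 1.16.

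The secreted products followed. TTR, a carrier of thyroid hormone, was at 15.6 and 16.8 TPM in SOX17 + LSE and at 0 and 6.15 TPM in BLSE + IWR1, with a log2 difference of 2.68 (SE 0.49, adjusted p = 0.00014). The replicates of BLSE + IWR1 decided much of this value: it was 1.27 (adjusted p = 0.052) without replicate 1, where TTR was at 0, and 4.10 without replicate 2. In most conditions of the fit TTR was listed at 0 in both libraries. Its SE is thus not a measure of the spread where TTR was detected. APOA1, the main protein of high-density lipoprotein, was at 204 and 405 TPM against 45.8 and 106 TPM.

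DDC, the decarboxylase that makes dopamine and serotonin, also found in gut and liver, was at 9.3 and 7.72 TPM against 0.22 and 1.01 TPM. Its log2 difference was 2.60 (SE 0.30, adjusted p = 8.1e-08). CUBN, an endocytic receptor of visceral endoderm, was higher by 1.51 on the log2 scale, and KRT19, an epithelial keratin, by 1.14. Outside the list and chosen after their values were seen, GC, the vitamin D binding protein, was at 178 and 383 TPM against 21.4 and 40.6 TPM, and MTTP, which loads lipid onto lipoproteins, was at 4.01 and 8.34 TPM against 0.34 and 1.1 TPM.

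Other genes of the list were hardly detected. AFP and APOC3 were listed at 0 in all 4 libraries, and FOXA1 was at 0.36 TPM or less in each. The 2 members that were lower were HHEX, an early factor of anterior endoderm, with a log2 difference of -1.004 (adjusted p = 0.036), and APOA2, which was listed at 0 in both SOX17 + LSE libraries and at 2.27 and 0.89 TPM in the others. HHEX was past the threshold in 1 of the 4 fits without 1 library.

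The summed TPM of the endoderm list was 2817 and 4010 in SOX17 + LSE and 1774 and 2201 in BLSE + IWR1. In the starting cjESCs the sum was 10156 and 10749 in DK20FA and 5275 and 4395 in PESFA, more than in any of these sorted libraries. In the unsorted BLSE 96 h cells, which received BMP4 without SOX17 or IWR1, it was 9982 and 10176, and KRT8, KRT18 and KRT19 gave most of it there. In bulk RNA, a few cells with much of a transcript cannot be told apart from many cells with little of it. Replicate 2 of SOX17 + LSE stood above replicate 1 for 71 of the 102 DEGs that were higher, by a median of 0.36 on the log2 scale, while over all genes the median was -0.04. In BLSE + IWR1 replicate 2 stood above replicate 1 for 67 of them, by a median of 0.33, beside 0.06 over all genes.

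Leaving out SOX17 + LSE replicate 2 left fewer DEGs that were higher, most of them among the 102. Over the fits without each of the 4 libraries, 96 of the 102 were past an adjusted p of 0.05 every time and 46 were DEGs every time.

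WNT ligands were also often higher in SOX17 + LSE, and the part of IWR1, which this route lacked, was not tested. Of 10 tested ligands 6 were higher, 4 of them as DEGs, and none was lower, with a median log2 difference of 0.79. Over all genes tested 12.7% were higher, 0.911% were higher as DEGs and 5.07% were lower. WNT3A, a canonical ligand of the primitive streak, was at 29.6 and 38.5 TPM against 1.12 and 1.91 TPM, a log2 difference of 3.81 (SE 0.32, adjusted p = 1.9e-10). WNT8A, another canonical ligand of the early streak, was at 26.4 and 22.9 TPM against 1.43 and 1.2 TPM, a log2 difference of 3.47 (SE 0.41, adjusted p = 8.3e-08). WNT5B was at 8.16 and 12.9 TPM against 1.12 and 1.9 TPM, and WNT7B was at 7.48 and 6.08 TPM against 0.4 and 1.24 TPM. None of these 4 ligands overlapped between the groups, as was so for 54.6% of all genes tested.

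Among genes that respond to WNT or feed back on it, 7 of 17 tested were higher, 1 was lower and 9 were not called. Their median was 0.64, and over all genes tested 12.7% were higher and 5.07% lower. SP5, a direct target of WNT signaling, was at 24.1 and 13.6 TPM against 1.14 and 1.06 TPM. CDX1, a homeobox gene of posterior identity, was at 123 and 112 TPM against 13.7 and 20.2 TPM, and CDX2, its relative, was at 10.7 and 23.5 TPM against 0.33 and 1.46 TPM. RSPO3, which amplifies WNT signaling, was at 159 and 270 TPM against 35.9 and 43.8 TPM.

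These 4 were the DEGs of the list, and 3 further members were higher and 1 lower by the second rule. AXIN2, the negative feedback gene, was at 4.17 and 3.36 TPM against 1.59 and 0.88 TPM (log2 difference 1.11, adjusted p = 0.0077), but its adjusted p was 0.14 without BLSE + IWR1 replicate 2 and 0.081 without SOX17 + LSE replicate 1. TBXT, the streak factor that takes part in primate PGC fate, was at 362 and 306 TPM against 504 and 647 TPM, and its log2 difference of -0.78 was not called (adjusted p = 0.13). TBX6, a factor of presomitic mesoderm, was lower by 1.34 on the log2 scale.

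Genes of the NODAL axis and of mesendoderm showed a like pattern, with 6 of 12 tested higher, none lower and a median of 0.88. Over all genes tested the shares were 12.7% higher and 5.07% lower. NODAL itself was at 27.1 and 18.9 TPM in SOX17 + LSE and at 3.04 and 2.38 TPM in BLSE + IWR1. FST, which binds and blocks activin, was at 76.7 and 114 TPM against 6.71 and 10.5 TPM, a log2 difference of 3.33 (SE 0.32, adjusted p = 1.8e-09). GSC, a factor of anterior mesendoderm, was at 12 and 11 TPM against 0.57 and 1.01 TPM. EOMES, which opens the endoderm program, was at 5.16 and 4.45 TPM against 0.19 and 0.34 TPM, and its log2 difference of 2.20 (adjusted p = 0.0036) was not a DEG because its mean level was too low. CER1, an inhibitor made by anterior endoderm, was at 0.36 and 0 TPM against 0 and 0 TPM.

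**Figure D3:**
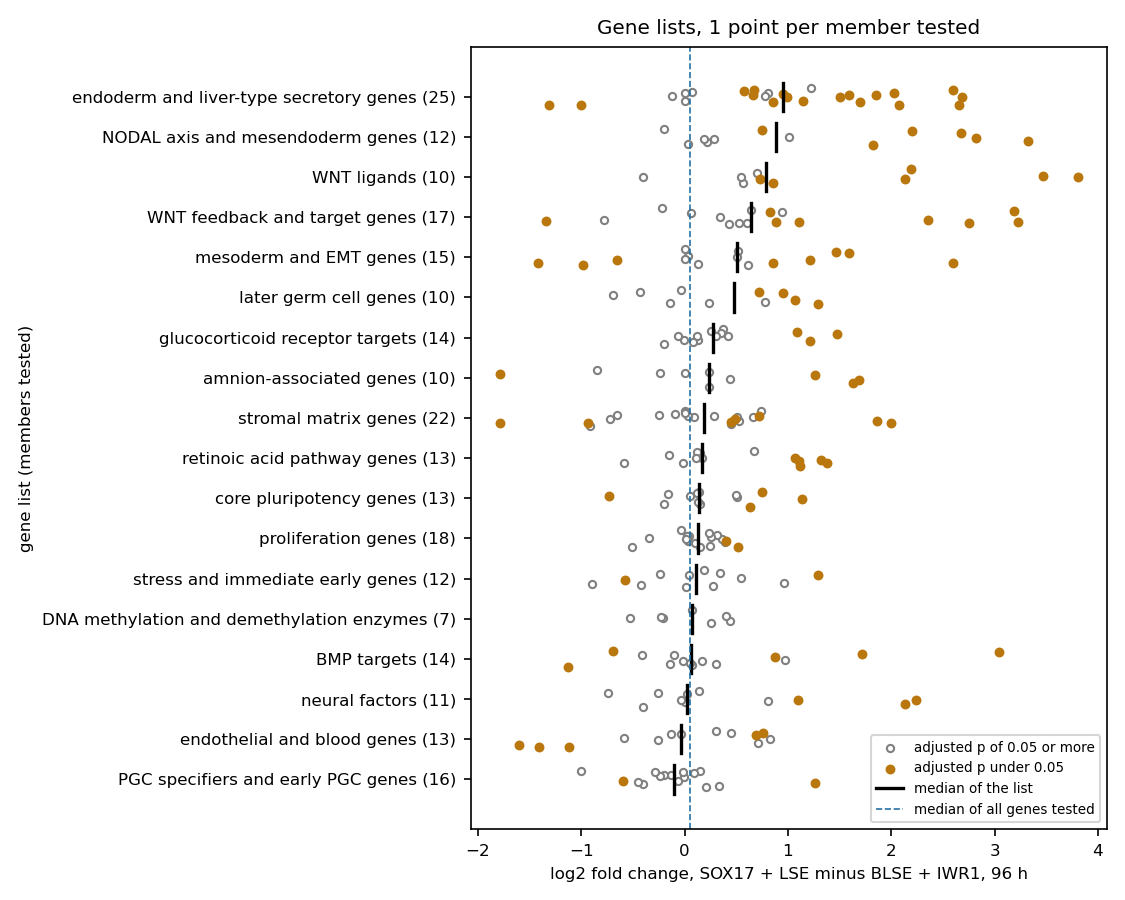
Each point is 1 tested member of 1 of 18 gene lists (y axis, with the number tested), placed by its log2 fold change at 96 h (x axis); filled points have an adjusted p under 0.05, black bars are list medians and the dashed line is the median of all genes. The endoderm, NODAL, WNT ligand and WNT target lists have the highest medians, from 0.64 to 0.95, and the PGC list the lowest, -0.10.

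BMP targets, induced through SMAD factors, did not move one way at 96 h. Of 14 tested BMP target genes, 3 were higher, 2 lower and 9 not called, with a median log2 difference of 0.06. Over all genes tested 12.7% were higher and 5.07% lower. ID1, a direct target of BMP signaling, was at 662 and 832 TPM against 762 and 874 TPM, and ID3 was at 472 and 554 TPM against 469 and 566 TPM. BAMBI, a decoy receptor induced by BMP, was at 267 and 277 TPM against 211 and 316 TPM. For these 3 the groups overlapped.

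The higher members were DLX3, a homeobox gene, at 39.2 and 48.2 TPM against 3.48 and 5.51 TPM, BMP7 and ID4. DLX3 was the DEG of the list, with a log2 difference of 3.04 (adjusted p = 7.9e-07), and it was at 48.1 and 36.7 TPM in SOX17 + BLSE. BMP4 itself was lower at 94.5 and 99.3 TPM against 134 and 185 TPM. DLX5 was at 1.68 and 1.69 TPM against 6.54 and 3.58 TPM, a call kept in 1 of the 4 fits without 1 library.

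At 48 h, in unsorted cells of the same routes, the same list stood apart. Of the 14 members 10 were lower in SOX17 + LSE and none higher, with a median of -1.03, beside 11.1% of all genes lower. Amnion-associated genes, which BMP also induces, had 6 of 10 lower and 1 higher at 48 h, with a median of -1.32. GATA3, one of them, had a log2 difference of -1.86 at 48 h (adjusted p = 2.7e-06) and of -0.24 at 96 h (adjusted p = 0.63).

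At 96 h that list had 3 members higher, 1 lower and 6 not called, with a median of 0.24. Of all genes tested, 12.7% were higher and 5.07% lower at that time. TBX3 was at 54.8 and 109 TPM against 17.1 and 34.6 TPM, and HAND1 was at 91.9 and 165 TPM against 40 and 64.2 TPM. BMP2 was at 7.14 and 14.7 TPM against 1.09 and 4.92 TPM. VTCN1, an immune checkpoint ligand of amnion and trophoblast, was lower, at 0.48 and 1.9 TPM against 8.36 and 4.48 TPM. HAND1 and BMP2 lost their calls without SOX17 + LSE replicate 2 (adjusted p = 0.15 and 0.080) and without BLSE + IWR1 replicate 1 (adjusted p = 0.10 and 0.13). The sort at 96 h and its absence at 48 h cannot be told apart from time.

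DCN, a small proteoglycan of connective tissue, was at 83.1 and 152 TPM in SOX17 + LSE and at 26.2 and 28.6 TPM in BLSE + IWR1. Its log2 difference of 1.999 (SE 0.44, adjusted p = 0.0012) fell just short of the 4-fold limit and was 1.57 (adjusted p = 0.054) without SOX17 + LSE replicate 2. TSPAN7, at 2.005, lay just inside the limit and CLDN3, at 1.97, just outside it. In BLSE at 96 h DCN was at 1703 and 1054 TPM, and in sorted SOX17 + BLSE cells at 6.01 and 9.37 TPM.

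The stromal matrix list as a whole did not follow DCN. Of 22 tested members 5 were higher, 2 lower and 15 not called, with a median of 0.19, and none was a DEG. Over all genes tested 12.7% were higher and 5.07% lower. BGN, a relative of DCN, was at 12.2 and 13 TPM against 3.58 and 2.03 TPM. COL1A1, the main collagen chain of stroma, was at 11.8 and 9.2 TPM against 9.94 and 15.7 TPM, and COL3A1 was lower, at 0 and 0.23 TPM against 1.57 and 4.66 TPM. ASPN and OGN were listed at 0 in all 4 libraries. The summed TPM of this list was 2165 and 2466 against 1476 and 1818.

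Of 15 tested mesoderm and EMT genes, 5 were higher and 3 lower, beside 12.7% and 5.07% of all genes. TWIST1, which drives EMT, was at 5.93 and 12.9 TPM against 0.38 and 0.9 TPM and was the DEG of the list. The lower ones were VIM, at 170 and 141 TPM against 229 and 259 TPM, CDH2, at 191 and 167 TPM against 370 and 340 TPM, and ANGPT2. PRRX1, TCF21, ZEB1 and FN1 were listed at 0 in all 4 libraries, and the list summed to between 381 and 424 TPM against 629 and 638 TPM.

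Endothelial and blood genes had 2 of 13 higher and 3 lower, where 12.7% of all genes were higher and 5.07% lower. CDH5, the endothelial cadherin, was at 4.65 and 7.6 TPM against 17.1 and 17.9 TPM, and EGFL7 was at 1.19 and 1.23 TPM against 4.06 and 7.86 TPM. GATA1 was listed at 0, and the list summed to between 67.5 and 81.1 TPM against 83.4 and 85.7 TPM. Neural factors had 3 of 11 higher and none lower, among them SOX3, at 6.19 and 9.63 TPM against 1.5 and 0.59 TPM. SOX1 and ZIC1 were listed at 0, and this list summed to 126 and 141 TPM against 111 and 134 TPM. The part of any such cells in the differences between the routes was not tested.

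Dexamethasone, which only the SOX17 + LSE cells received, also binds the glucocorticoid receptor of the cell. Of 14 tested receptor targets 3 were higher and none lower, with a median of 0.28, beside 12.7% higher and 5.07% lower over all genes. TAT, a liver enzyme, was at 112 and 120 TPM against 49.5 and 49.5 TPM, and CRISPLD2 was at 4.38 and 9.94 TPM against 2.47 and 1.19 TPM. FKBP5, a standard marker of receptor activity, was at 33.2 and 39 TPM against 24.9 and 28.3 TPM and was not called (adjusted p = 0.089). TAT was called in none of the 4 fits without 1 library, and the part of the agent in the other differences was not tested.

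In the retinoic acid pathway 5 of 13 genes were higher and none lower, among them the binding protein CRABP2, at 113 and 144 TPM against 54.7 and 43.1 TPM. Later germ cell genes had 4 of 10 higher and none lower. DMRT1, a sex determination factor, was at 16.4 and 8.95 TPM against 5.77 and 4.8 TPM, and MAEL, of the piRNA pathway, was at 20.5 and 20.5 TPM against 8.26 and 12.4 TPM. MAEL was called in 1 of the 4 fits without 1 library. Proliferation genes had 2 of 18 higher and none lower, and stress genes 1 of 12 higher and 1 lower. Enzymes of DNA methylation had 0 of 7 in either direction by limma. Beside the counts of these lists, 12.7% of all genes tested were higher and 5.07% lower.

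The 5 genes that were lower as DEGs belonged to no list. PRSS16, a serine protease of the thymus, was at 58.1 and 68.1 TPM in SOX17 + LSE and at 229 and 341 TPM in BLSE + IWR1, a log2 difference of -2.14 (SE 0.23, adjusted p = 2.4e-08). PRDM13, a factor of neural and germ cell development, was at 9.8 and 10.5 TPM against 36.6 and 52.8 TPM. PLD5 was at 0.49 and 1.91 TPM against 6.52 and 9.22 TPM, and SPACA6, a sperm protein needed for fertilization, was at 0.73 and 0.43 TPM against 4.31 and 7.23 TPM.

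PRR9, a protein of skin differentiation, was at 0 and 5.3 TPM against 17.3 and 14.5 TPM. Its difference was -2.75, but -1.42 (adjusted p = 0.066) without SOX17 + LSE replicate 1, where it was at 0. It was at 301 and 531 TPM in SOX17 + BLSE and at 645 and 1042 TPM in BLSE. Both of these received BMP4 and no IWR1, and the part of either in PRR9 was not tested. The count of lower DEGs ranged from 2 to 11 over the fits without 1 library.

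The sorted SOX17 + BLSE cells, with the transgene and BMP4 and without IWR1, share medium and subline with SOX17 + LSE. Each comparison with them shares a group with the comparison above, so the values are given side by side with no test of likeness. WNT3A was at 8.54 and 9.14 TPM in SOX17 + BLSE, SP5 at 7.07 and 6.77 TPM and CDX1 at 36.4 and 38.1 TPM, each between the other groups. WNT8A was at 0 and 0.85 TPM, DDC at 0 and 0 TPM and FOXA2 at 6.36 and 7.51 TPM, near or below the BLSE + IWR1 libraries.

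With BMS493, an inverse agonist of retinoic acid receptors, added to BLSE + IWR1, some endoderm genes were high without the transgene. In those sorted cells at 96 h FOXA2 was at 31.9 and 22.9 TPM, APOA1 at 284 and 172 TPM and GC at 113 and 68.6 TPM. WNT3A was at 2.74 and 1.89 TPM, SP5 at 0.89 and 0.34 TPM and WNT8A at 1.33 and 0.31 TPM, as low as in BLSE + IWR1. Other members did not follow this split: DDC was at 0.42 and 0.54 TPM and TTR at 2.83 and 7.24 TPM, while RSPO3 was at 127 and 65.3 TPM.

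The libraries of both routes at earlier times did not enter the fold changes that chose the DEGs. They did share in the pooled spread and in the filter. Of the 102 genes higher at 96 h, 33 were higher at 12 h at an adjusted p under 0.05, 54 at 24 h and 74 at 48 h, while 12.6%, 12.5% and 15.8% of all genes were higher at these times. Their median log2 difference was 0.51 at 12 h, 1.13 at 24 h and 1.62 at 48 h. By the same rule 11 of them were lower at 12 h, 7 at 24 h and 4 at 48 h, the last including WNT8A, SOX3 and SLC30A2. Of all 11197 genes tested, 962, 890 and 1246 were lower at these times. The cells before 96 h were not sorted.

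WNT8A crossed over between the routes. At 48 h it was at 79.2 and 82.8 TPM in SOX17 + LSE and at 263 and 298 TPM in BLSE + IWR1, a log2 difference of -1.78 (adjusted p = 0.00098). At 96 h the values of WNT8A were 26.4 and 22.9 TPM and 1.43 and 1.2 TPM. The difference at 96 h minus that at 48 h was 5.25 on the log2 scale (adjusted p = 3.7e-08), a contrast chosen after the values at 48 h were seen. By the same contrast 32 of the 102 genes were higher, beside 7.92% of all genes. The 102 were chosen by their difference at 96 h, which the contrast holds, so that share is no fair baseline. In BLSE, without IWR1 or SOX17, WNT8A was at 28.3 and 26.9 TPM at 48 h and listed at 0 in both libraries at 96 h.

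FOXA2 and APOA1 had separated by 48 h. FOXA2 had a log2 difference of 3.55 at that time and APOA1 of 5.12. RSPO3 had one of 6.19 and DCN one of 2.68. TTR was listed at 0 in both routes at 48 h and APELA had a difference of 0.64 (adjusted p = 0.31). For both, the difference at 96 h exceeded that at 48 h, by 2.68 for TTR (adjusted p = 0.0069) and by 3.10 for APELA (adjusted p = 0.00066).

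**Figure D4:**
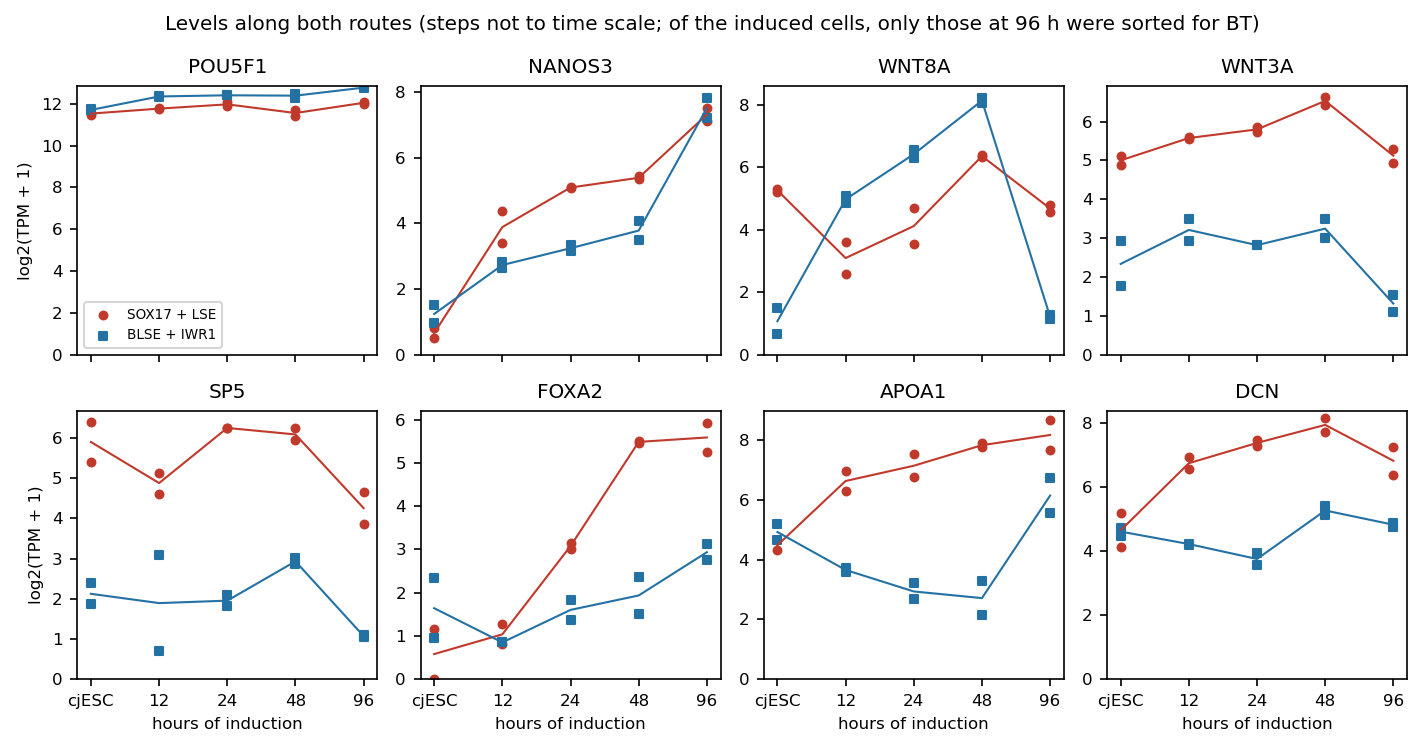
Each panel gives log2(TPM + 1) of 1 gene (y axis) in the starting cjESCs and after 12, 24, 48 and 96 h of induction (x axis, steps not to scale), with 1 point per library and lines through the means of SOX17 + LSE and BLSE + IWR1. WNT8A was lower in SOX17 + LSE at 48 h and higher at 96 h, NANOS3 ended at like levels, and FOXA2, APOA1, SP5 and WNT3A were higher in SOX17 + LSE at 48 h and 96 h.

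The starting cjESCs already differed, in DK20FA with the transgenes against PESFA without them. Of the 102 genes, 31 were higher in DK20FA at an adjusted p under 0.05, beside 15.2% of all genes, and 13 were lower, beside 11.5%. WNT8A was at 36.2 and 38.5 TPM in DK20FA and at 0.58 and 1.79 TPM in PESFA, a log2 difference of 4.19. The difference at 96 h minus that at the start was -0.72 (adjusted p = 0.42). For WNT3A it was 1.14 (adjusted p = 0.073) and for SP5, CDX1, CDX2 and NODAL it was not called either (adjusted p from 0.25 to 0.60).

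For 77 of the 102 genes the difference at 96 h exceeded that of the starting cells at an adjusted p under 0.05. For 25 it did not. The share over all genes was 12.2%. The 102 were chosen by their difference at 96 h, which this contrast holds, so that share is no fair baseline. The endoderm genes FOXA2, TTR and DDC were among the 77. Other endoderm genes, which were not DEGs, already differed at the start. GATA6 was at 122 and 154 TPM in DK20FA and at 17.8 and 20.5 TPM in PESFA. KRT19 was at 1671 and 2163 TPM against 632 and 568 TPM. In FOXA2 the starting difference was -1.06, and the difference at 96 h minus it was called (adjusted p = 2.0e-05), as for SELENOP, IHH, APELA, NEUROG3, TTR and DDC. DCN had a starting difference of 0.04, and the difference at 96 h exceeded it by 1.96 (adjusted p = 0.023).

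The cjESCs in PESFA also carried far more of the stromal list, with summed TPM of 6933 and 5238 against 2923 and 3883 in DK20FA. COL1A1, for one, was at 1598 and 878 TPM against 41.8 and 83.6 TPM. Genes such as S100A4 and SPP1, with starting differences of -5.42 and -4.30, are high in those PESFA libraries, and what part other cells have in them was not tested.

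**Figure D5:**
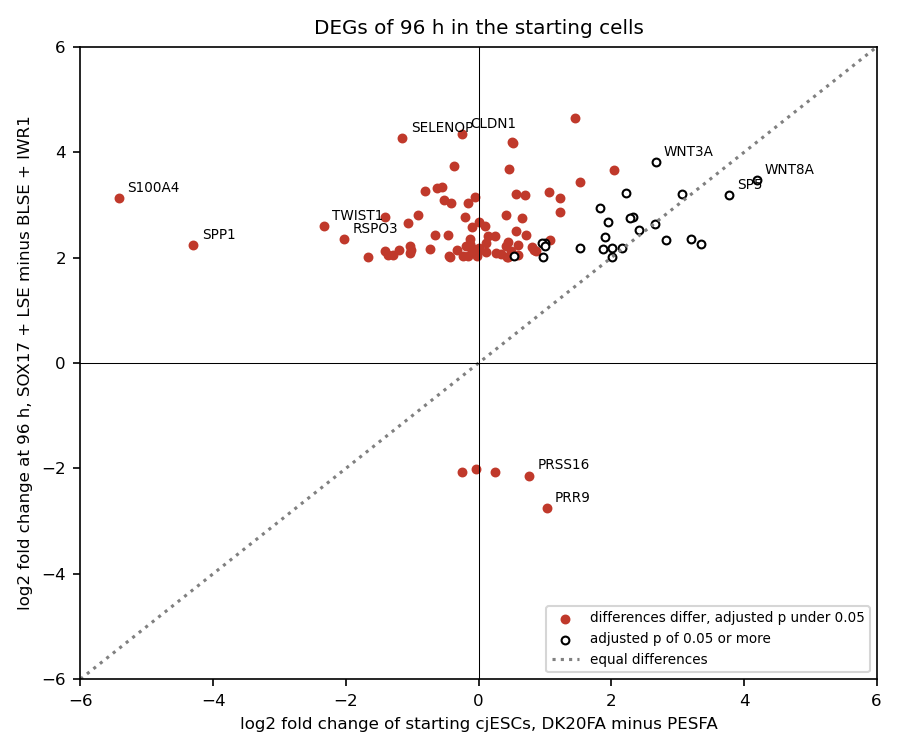
Each point is 1 of the 107 DEGs of 96 h, with the log2 fold change of the starting cjESCs (DK20FA minus PESFA) on the x axis and that of the sorted cells at 96 h on the y axis; filled points have differences that differ at an adjusted p under 0.05. WNT8A and SP5 lie near the dotted line of equal differences, whereas SELENOP, CLDN1, TWIST1 and RSPO3 lie far above it.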

How the data were processed

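Single-end RNA-seq libraries of sorted or unsorted cells were aligned with STAR and quantified with RSEM by the authors, who deposited 1 table of TPM values for 14812 genes of the marmoset genome in 54 libraries. TPM keeps no read depth, so no counting error can be given. Values were taken as log2(TPM + 1), and genes with at least 1.5 on that scale in at least 1 library were kept (11197). limma 3.58.1 (R 4.3.3) was fitted to all 54 libraries with 1 mean per condition and an intensity trend, with two-sided tests and Benjamini-Hochberg adjustment over all genes tested. The edgeR test that the authors used on their reads needs counts and was not run. The replicates are described as biological duplicates.

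DEG limits and the second rule (adjusted p under 0.05) are given with the results. The named genes were DCN, TTR, DDC, WNT8A, the 10 largest increases and the decreases among DEGs with a gene symbol, and for each list its DEGs and defining members. Other genes named were chosen after their values were seen. Members and lists were chosen with earlier results of these data known. Genes at 0 in both libraries of a group are given as listed at 0. Simulated data for the 96 h comparison covered 11197 genes. There 100 of 100 genes changed by 3 on the log2 scale were DEGs, and 97 of 100 changed by 1.5 passed the second rule. Of the unchanged genes, 11 passed the second rule and 0 were DEGs. The changed genes were drawn from those averaging above 3 on the log2 scale, with normal noise of the spread of each gene. Genes at lower levels, such as DDC, were thus not covered. That spread was pooled over all 54 libraries, as in the fit, so the simulation cannot show whether it holds for the 2 groups at 96 h. Alternatives were another pseudocount (0.1), no filter, no trend, median-ratio scaling, quantile normalization, a fit of only the libraries compared, a replicate block and leaving out each library. A planned description of promoter motifs was not run, since no promoter sequences were used here. Some genes of the lists are not reported here.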

Additional observations from a re-analysis of the deposited data

Results flagged for a closer look

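The difference between the routes at 96 h was itself different from that of the starting cjESCs for 16 of the named genes, by the limma contrast of both differences. On the log2 scale the difference at 96 h minus that at the start was 4.61 for CLDN1, 5.42 for SELENOP, 3.70 for RNASE1, 3.66 for IHH, 4.12 for APELA and 3.23 for NEUROG3. It was 1.63 for GATM, 1.90 for C1QTNF3, 2.68 for TTR, 2.51 for DDC and 1.96 for DCN. For the genes that were lower in SOX17 + LSE it was -1.97 for PRDM13, -1.82 for SPACA6, -2.32 for PLD5, -2.90 for PRSS16 and -3.77 for PRR9. The cjESCs were sorted for another marker than the cells at 96 h. Most of the named genes were chosen by their difference at 96 h, which is part of this contrast and of that with 48 h.

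The difference at 96 h also departed from that at 48 h. It was greater by 5.25 for WNT8A, 3.03 for SELENOP, 3.10 for APELA and 2.68 for TTR, and the change was -1.28 for GATM and -1.83 for PRDM13. The cells at 48 h were not sorted. No group held 4 libraries, so single libraries were not tested against their group.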

How the results depend on the processing

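Depth is unknown for TPM values, and with 2 libraries a group the tests rest on the spread of all 54 libraries. When only the libraries compared were fitted, limma called 0 DEGs and 0 genes at an adjusted p under 0.05 in either direction at 96 h, with 2 residual degrees of freedom, 2677 genes at an unadjusted p under 0.05 and a smallest adjusted p of 0.073. In that fit 0 members of the endoderm, WNT ligand, WNT target and NODAL lists were called, and there were 4 DEGs at 12 h, 23 at 24 h, 0 at 48 h and 120 for the difference at 96 h minus that of the cjESCs. Deviations of same-numbered libraries at 96 h had a correlation of 0.050, so the numbers do not establish pairs. With the replicate block in all libraries there were 102 DEGs higher and 5 lower, and 1475 and 599 genes at an adjusted p under 0.05. With the replicate block in only the 4 libraries there were 0 of each by limma, 0 members called in the 4 lists, and 2494 genes at an unadjusted p under 0.05.

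Quantile normalization gave 78 DEGs higher, all among the 102, and 1141 genes higher and 1024 lower at an adjusted p under 0.05, and median-ratio scaling gave 87 DEGs higher. A pseudocount of 0.1 gave 99 DEGs higher, of which 71 were among the 102. Over the fits without 1 library, DEGs ranged from 68 to 119 higher and from 2 to 11 lower, and genes at an adjusted p under 0.05 from 862 to 1050 higher and from 208 to 604 lower. Members called higher ranged from 11 to 15 for endoderm, 5 to 6 for NODAL, 4 to 5 for WNT targets and 4 to 5 for WNT ligands. DEGs ranged from 149 to 194 at 12 h, 164 to 190 at 24 h, 207 to 241 at 48 h and 270 to 325 for the difference at 96 h minus that of the cjESCs. The cause of these shifts was not tested.

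Genes that were not called turned in sign in such fits: the log2 difference ranged from -0.50 to 0.12 for NANOS3, from -0.11 to 0.077 for TFAP2C, from -0.30 to 0.029 for ID1 and from -0.15 to 0.12 for ID3. It ranged from -0.76 to 0.29 for GATA3, from -0.22 to 0.36 for BAMBI and from -0.55 to 0.060 for COL1A1. For the 88 named genes the other settings changed no direction in 703 pairs of gene and setting, while 154 lost and 1 gained a call. Only the other pseudocount, median-ratio scaling and quantile normalization could change a direction. The remaining settings leave the log2 differences as they are, so their pairs could not turn. Calls were also lost without SOX17 + LSE replicate 1 for DMRT1 (adjusted p = 0.12), MAEL (0.059), COL3A1 (0.087) and BMP4 (0.061), and without SOX17 + LSE replicate 2 for CRISPLD2 (0.13), CRABP2 (0.077), VIM (0.15), ID4 (0.0505) and MAEL (0.062). Without BLSE + IWR1 replicate 1 they were lost for MAEL (0.16) and ID4 (0.066), and without replicate 2 for COL3A1 (0.23), BMP4 (0.22), CRISPLD2 (0.083), CRABP2 (0.080) and VIM (0.13).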
